A study of Mus musculus with 8 samples.

Results

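Adenosine is a signal made outside the cell from released ATP and read by 4 receptors. Their mRNAs, together with those of the enzymes that make and remove adenosine, were followed in the mouse uterus with and without Nr2f2. The set held 9 of the 24963 genes measured: the receptors Adora1, Adora2a, Adora2b and Adora3, the surface enzymes Entpd1, Entpd2 and Nt5e, and the enzymes Ada and Adk. It was chosen by the measured FPKM of Adora2b, which was lower in Nr2f2 d/d uteri, so the Adora2b difference is given as a description and was not tested. The other 8 genes were taken for their place in the pathway, with earlier results of these data known.

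RNA-seq was performed on whole uteri of C57B6/J mice, given as 8 weeks old in the labels and 2 to 3 months in the study's methods, at gestation day (GD) 3.5, with 4 libraries for each genotype. Females had mated with vasectomized males, so that no embryo was present in either group. Nr2f2 f/f mice, the controls, carried floxed Nr2f2 alleles and no Cre. Nr2f2 d/d mice carried the same floxed alleles and Cre knocked into 1 Pgr allele, which acts in cells that express the progesterone receptor, and the controls did not share that Pgr allele. NR2F2 is a nuclear receptor found in the stroma and the muscle layer of the uterus. Values are FPKM, fragments scaled to transcript length and library size, so that levels of genes that differ in length may be compared. Whole tissue was sequenced, and fewer cells of a type cannot be told apart from less RNA per cell.

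Nr2f2 itself stood at 24.1 ± 1.80 FPKM (SD, n = 4) in control uteri and 8.93 ± 1.36 in Nr2f2 d/d, which is 37.1% of the control level. Each library held between 61250000 and 92400000 fragments by the steps between the lowest values. Uterine markers were present in all libraries, with Hoxa10 at no less than 93.7 FPKM, Esr1 at no less than 31.1 and Pgr at no less than 11.4. Replicate 2 of Nr2f2 f/f stood apart from its group, by a gap to the nearest other value above the critical value of Dixon, in 5.95% of the genes tested, against 0.356% to 2.92% in the other 7 libraries, and the values that rest on it are also given without it. Of 14323 genes whose mean over the libraries reached 0.5 FPKM, 2.62% passed an adjusted p of 0.05 by limma with Benjamini-Hochberg adjustment, 1.09% as higher and 1.53% as lower in Nr2f2 d/d. The study used another threshold, a fold change of 1.4 or more together with an unadjusted p below 0.05, by DESeq2 on counts. Here that threshold was applied to the limma fit of log2(FPKM + 0.5), so that a gene passing it need not be one the study called. It was passed by 8.80%, 4.70% as higher and 4.10% as lower. An unadjusted p under 0.05 alone was reached by 21.2% of the genes tested. In 15.4% of the genes the 4 values of one genotype did not overlap those of the other.

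As background, ENTPD1 and ENTPD2 strip phosphates from extracellular ATP, ENTPD1 down to AMP and ENTPD2 mainly to ADP, and NT5E turns AMP into adenosine. The products of Adora1 and Adora3 couple to inhibitory G proteins and lower cAMP, while the products of Adora2a and Adora2b couple to stimulatory ones and raise it. The Adora2b receptor has the lowest affinity and responds when adenosine is abundant, as in hypoxic or injured tissue. Adenosine is carried into cells by equilibrative transporters, then deaminated to inosine by ADA or phosphorylated to AMP by ADK. In the mouse, ADA is abundant in the decidua and placenta.

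Adora2b, the gene that led to the choice of this set, lies on mouse chromosome 11 (mm10 chr11:62248984-62266453, plus strand). The 250 bases before its start are shown first, beside those of Slc29a1, the main transporter that takes adenosine up, because both mRNAs were lower in Nr2f2 d/d uteri and because nuclear receptors of the NR2F2 class read a short DNA motif. The sequences are from RefSeq on GRCm38.p6, 5′ to 3′ on the strand of the gene, at chr11:62248734-62248983 for Adora2b and at chr17:45599619-45599868, minus strand, for the most upstream start of Slc29a1. Capitals mark a match to the motif AGGTCA or GGGTCA on either strand.
Adora2b: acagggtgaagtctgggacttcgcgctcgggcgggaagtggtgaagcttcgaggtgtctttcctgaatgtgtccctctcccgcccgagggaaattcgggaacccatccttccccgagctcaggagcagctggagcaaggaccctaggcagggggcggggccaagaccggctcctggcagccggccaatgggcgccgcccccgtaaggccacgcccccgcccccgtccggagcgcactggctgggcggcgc
Slc29a1: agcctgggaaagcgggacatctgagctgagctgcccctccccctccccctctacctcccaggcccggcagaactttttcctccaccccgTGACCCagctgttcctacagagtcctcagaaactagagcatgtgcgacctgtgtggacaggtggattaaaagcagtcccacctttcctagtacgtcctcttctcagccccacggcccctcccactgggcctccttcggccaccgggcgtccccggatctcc

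The Slc29a1 stretch held GGGTCA on the reverse strand, 161 bases before the start, and the Adora2b stretch held neither form. Windows of 300 bases around the start, 250 before and 50 after, were at hand for 8 of the 9 genes. Neither form was found in their 11 windows. Slc29a1 had 8 windows, 3 of them with a match, and Slc29a2 had 1 window without one. Of all 32851 windows, 27.5% held a match. These counts describe the letters in the windows and say nothing on where NR2F2 was bound.

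Adora2b had 1.54, 1.36, 1.29 and 1.45 FPKM in the 4 Nr2f2 f/f uteri, and 0.492, 0.426, 0.380 and 0.466 FPKM in the 4 Nr2f2 d/d uteri. The groups lay well apart, and the level in Nr2f2 d/d was 31.2% of that in Nr2f2 f/f (0.441 ± 0.0489 against 1.41 ± 0.108). These levels rest on about 154 to 186 fragments in each Nr2f2 f/f library and 56 to 78 in each Nr2f2 d/d library. On the log2(FPKM + 0.5) scale, which understates the change of low genes, the difference was -1.02, and it was -1.48 with 0.1 added in place of 0.5. The gene passed the filter only through the Nr2f2 f/f libraries, its mean over all 8 being 0.927 FPKM.

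**Figure D1:**
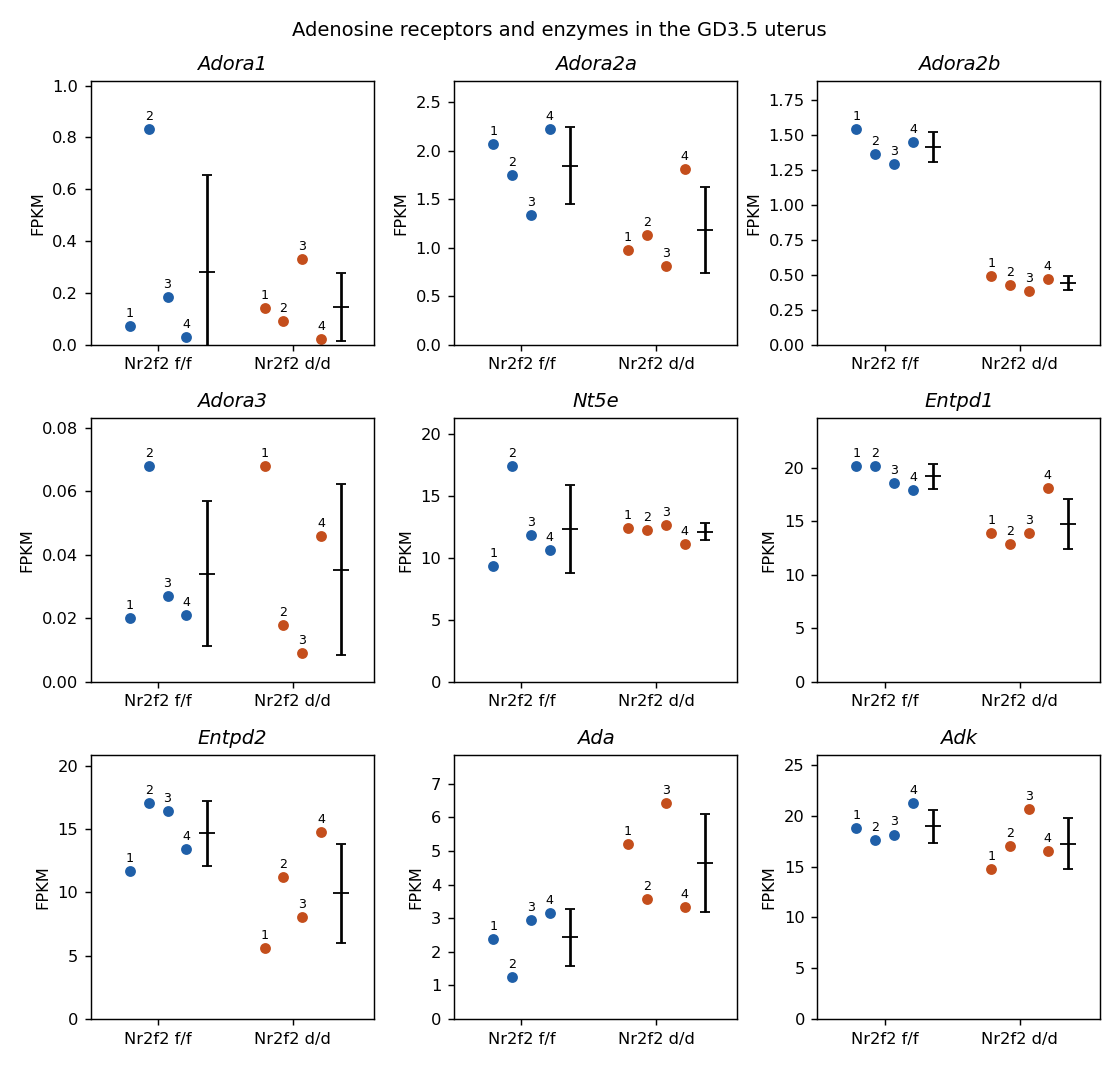
FPKM of the 9 genes in each uterus, with the replicate number above each point, and the mean and SD (n = 4) of each genotype in black. The vertical axes start at 0 and differ between genes. The points of Adora2b and Ada do not overlap between genotypes, Adora2b being lower and Ada higher in Nr2f2 d/d, while the Nr2f2 d/d points of Nt5e lie within the control range.

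Adora2a, the other receptor that raises cAMP, lies on chromosome 10 (chr10:75316877-75334784, plus strand). It had 2.07, 1.75, 1.33 and 2.23 FPKM in control uteri and 0.978, 1.13, 0.808 and 1.81 in Nr2f2 d/d. Thus 3 of 4 Nr2f2 d/d uteri were below every control, and replicate 4 of Nr2f2 d/d was within the control range. The log2 difference was -0.50 (SE 0.201), with an unadjusted p of 0.038 and an adjusted p of 0.211 by limma. It therefore passed the threshold of the study but not the adjusted one. The former was not passed with 1 added before log2, with median-ratio scaling, or in 6 of 8 fits with a library left out, namely those without replicate 1, 2 or 4 of control uteri or 1, 2 or 3 of Nr2f2 d/d.

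Adora1 and Adora3, the receptors that lower cAMP, did not pass the filter on low values and were not tested. Adora1 (chr1:134199223-134235431, minus strand) had 0.073, 0.834, 0.183 and 0.028 FPKM in control uteri and 0.142, 0.092, 0.330 and 0.023 in Nr2f2 d/d. These values rest on about 10 to 296 fragments a library. The highest was in replicate 2 of Nr2f2 f/f, and the groups overlapped. Since 20.1% of its exon bases are shared with Mybph on the opposite strand, and the strand setting of the counting is not given in the sources used here, reads of the neighbour cannot be set apart.

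Adora3 (chr3:105870858-105908926, plus strand) was at 0.020 to 0.068 FPKM in control uteri and 0.009 to 0.068 in Nr2f2 d/d, or about 3 to 16 fragments a library. A difference was not detectable at this depth. In addition, 20.9% of its exon bases are shared with Tmigd3 on the same strand. Mast cells are a known source of Adora3, and their proteases Cpa3, Cma1 and Mcpt4 were also low, between 0.256 and 1.5 FPKM in all libraries. The 7 mast cell markers summed to 15.2 to 22.7 FPKM in control uteri and 12.1 to 13.4 in Nr2f2 d/d, mostly Kit, and of 5 tested 0 passed the adjusted threshold by limma and 1 had an unadjusted p under 0.05, beside 21.2% of all genes. Their part in the Adora3 values was not tested.

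Summed over the 4 receptors, the level was 3.57 ± 0.510 FPKM (SD, n = 4) in control uteri and 1.81 ± 0.368 in Nr2f2 d/d, with ranges of 2.84 to 4.02 and 1.53 to 2.35. Adora2b made up 34.0% to 45.6% of this sum in control uteri and 19.8% to 29.3% in Nr2f2 d/d. Adora2a made up 43.6% to 59.9% and 52.9% to 77.2%. Adora2a had the larger share in all 8 libraries, most narrowly in replicate 3 of Nr2f2 f/f, with 47.0% against 45.6%. These shares follow in part from the choice of Adora2b and were not tested.

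**Figure D2:**
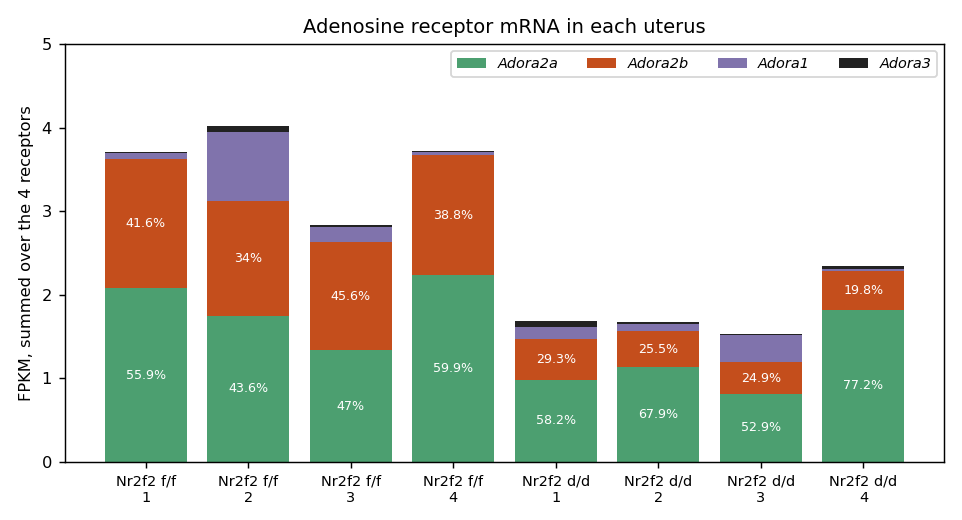
Stacked FPKM of the 4 adenosine receptors in each uterus, with the share of the sum printed for Adora2a and Adora2b. The sums are 2.84 to 4.02 FPKM in control uteri and 1.53 to 2.35 in Nr2f2 d/d, and the Adora2b share is smaller in each Nr2f2 d/d uterus than in any control.

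The surface enzymes that make adenosine were expressed at higher levels than the receptors. Entpd1 (chr19:40612366-40741602, plus strand), also known as CD39, had 20.2, 20.2, 18.6 and 17.9 FPKM in control uteri and 13.9, 12.9, 13.9 and 18.1 in Nr2f2 d/d. Replicate 4 of Nr2f2 d/d lay within the control range, and the other 3 lay below it. The log2 difference was -0.38 (SE 0.109), with an unadjusted p of 0.00756 and an adjusted p of 0.102 by limma. Without replicate 4 of Nr2f2 d/d, the difference was -0.48 and the adjusted p 0.0314, so that 1 library decided whether this gene passed.

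Entpd2 (chr2:25395874-25401321, plus strand) had 11.7, 17.1, 16.5 and 13.4 FPKM in Nr2f2 f/f. In Nr2f2 d/d it had 5.62, 11.2, 8.08 and 14.7 FPKM. The groups overlapped, with a log2 difference of -0.61 (SE 0.270) and an adjusted p of 0.245 by limma. The difference was -0.38 without replicate 1 of Nr2f2 d/d and -0.82 without replicate 4. Within Nr2f2 d/d, the order of the libraries for Entpd2 was also that of Myh11, the smooth muscle myosin heavy chain, which had 97.8, 171, 132 and 253 FPKM. In Nr2f2 f/f the orders of both genes differed, and the part of muscle content in the Entpd2 values was not tested. A share of 28.8% of the Entpd2 exon bases overlaps Npdc1 on the same strand.

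Nt5e (chr9:88327197-88372092, plus strand), also known as CD73, carries out the last step. It had 9.39, 17.5, 11.8 and 10.6 FPKM in control uteri and 12.4, 12.3, 12.7 and 11.2 in Nr2f2 d/d. The Nr2f2 d/d values all lay inside the control range, and the log2 difference was 0.01 (SE 0.171), with an adjusted p of 0.973 by limma. Without replicate 2 of Nr2f2 f/f, the highest value, the difference was 0.19 (SE 0.0907) and the adjusted p 0.292.

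Ada (chr2:163726584-163750239, minus strand) had 2.37, 1.26, 2.94 and 3.16 FPKM in control uteri and 5.21, 3.58, 6.43 and 3.33 in Nr2f2 d/d. The groups did not overlap, but the lowest Nr2f2 d/d value was only slightly above the highest control. The mean in Nr2f2 d/d was 191% of that in Nr2f2 f/f (4.64 ± 1.46 against 2.43 ± 0.851). The log2 difference was 0.82 (SE 0.276), with an unadjusted p of 0.0174 and an adjusted p of 0.149 by limma, so that Ada passed the threshold of the study alone. Without replicate 2 of Nr2f2 f/f the difference was 0.59 and the adjusted p 0.197.

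Adk (chr14:21052574-21448569, plus strand), the kinase that returns adenosine to AMP, had 18.8, 17.6, 18.2 and 21.3 FPKM in control uteri and 14.8, 17.0, 20.7 and 16.6 in Nr2f2 d/d. In Nr2f2 d/d, 3 of 4 values were below every control and replicate 3 was within the control range (log2 difference -0.14, SE 0.110, adjusted p = 0.50 by limma). It was -0.07 without replicate 1 of Nr2f2 d/d, -0.08 without replicate 4 of Nr2f2 f/f and -0.23 without replicate 3 of Nr2f2 d/d. The ratio of Ada to Adk was 0.126, 0.0715, 0.162 and 0.148 in control uteri and 0.352, 0.210, 0.311 and 0.201 in Nr2f2 d/d. Each of the 4 Nr2f2 d/d ratios exceeded every control, with a mean log2 difference of 1.10 and a two-sided exact permutation p of 0.0286, the smallest that 4 against 4 can give, or 0.0571 after adjustment over the 2 ratios tested. The second ratio, Nt5e to Ada, was 3.96, 13.9, 4.02 and 3.36 in control uteri and 2.38, 3.43, 1.97 and 3.35 in Nr2f2 d/d. Its log2 difference of -0.95 had an exact permutation p of 0.0571, also 0.0571 after adjustment, and was -0.48 without replicate 2 of Nr2f2 f/f.

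In order of level, Entpd1 and Adk led in both genotypes and their ranges overlapped. In Nr2f2 f/f, Entpd2 and Nt5e followed, then Ada, Adora2a and Adora2b, each overlapping the next. In Nr2f2 d/d, the ranges of Ada, Adora2a and Adora2b no longer overlapped from one to the next, with means of 4.64, 1.18 and 0.441 FPKM. Adora1 and Adora3 were lowest in both genotypes and overlapped each other.

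In total, 7 of the 9 genes passed the filter on low values. Of the 6 that remain without Adora2b, 0 passed the adjusted threshold by limma, while 3 had an unadjusted p under 0.05, beside 21.2% of all genes: Adora2a, Entpd1 and Ada. At the threshold of the study, 2 of those 6 passed, Adora2a as lower and Ada as higher, beside 8.80% of all genes. Groups did not overlap for Ada, 1 of the 6, beside 15.4% of all genes. The median log2 difference of the 6 was -0.26, against -0.02 over all genes tested.

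The wider pathway was followed in 131 listed genes, of which 126 were in the table and 103 were tested. At the adjusted threshold 7 passed, 1 as higher and 6 as lower, beside 2.62% of all genes, and at the threshold of the study 7 passed as higher and 10 as lower, beside 4.70% and 4.10% of all genes. The median log2 difference of the 103 was 0.00, with 53 above and 50 below 0. Groups did not overlap in 21 of them, beside 15.4% of all genes.

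Among nucleoside transporters, 5 were tested and 2 passed the adjusted threshold as lower, beside 1.53% of all genes. At the threshold of the study 1 passed as lower, beside 4.10%, since Slc29a2 was under a 1.4-fold change on the log2(FPKM + 0.5) scale. Slc29a1, which encodes the equilibrative transporter ENT1, had 49.2, 56.9, 56.0 and 54.7 FPKM in control uteri and 30.5, 27.5, 38.7 and 27.0 in Nr2f2 d/d. It was the most abundant of the transporters and lay lower in every Nr2f2 d/d uterus (log2 difference -0.81, SE 0.119, adjusted p = 0.0192 by limma). Slc29a2, which encodes ENT2, went from 3.42 ± 0.311 to 2.43 ± 0.101 FPKM (log2 difference -0.42, SE 0.0841, adjusted p = 0.0457). When each library was left out in turn, Slc29a1 stayed under 0.05 in 4 of 8 fits, with adjusted p-values of 0.00919 to 0.0707, and Slc29a2 in 0 of 8, with values of 0.0601 to 0.139. The summed level of the 7 listed transporters was 68.4 to 77.1 FPKM in control uteri and 44.8 to 61.3 in Nr2f2 d/d.

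**Figure D3:**
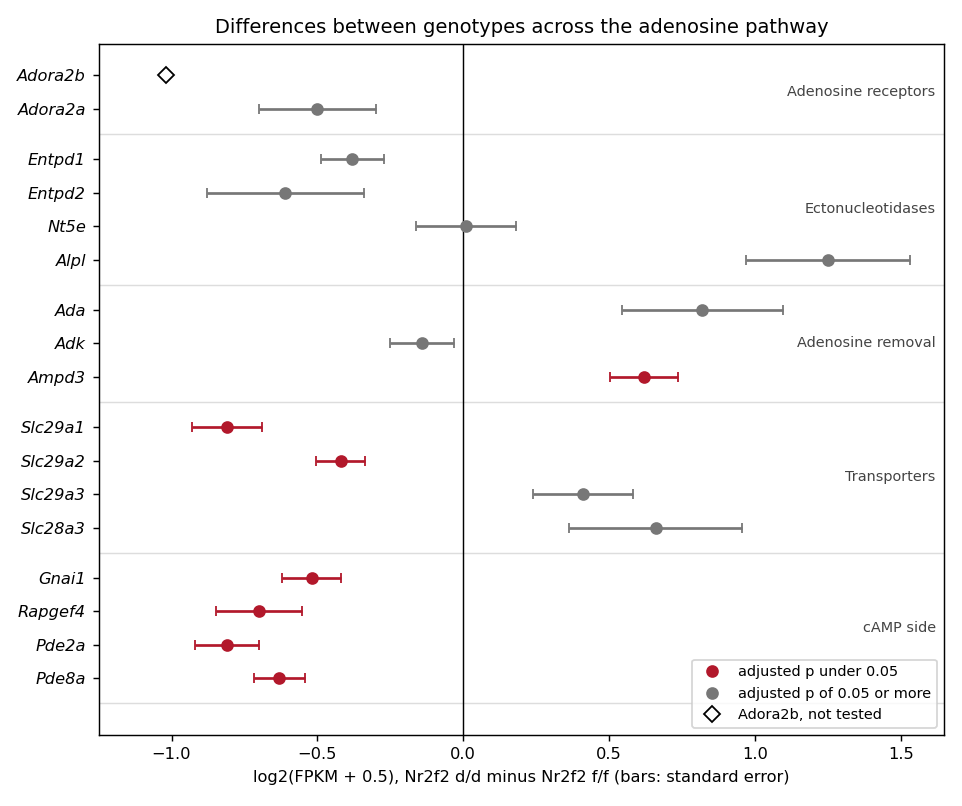
Mutant minus control difference in log2(FPKM + 0.5) for genes of the pathway, with the standard error of the limma fit, red where the adjusted p was under 0.05. Adora2b, at -1.02, is drawn as an open diamond without error because it was not tested; Slc29a1 and Pde2a, both at -0.81, are the lowest of the tested genes shown, and Alpl, at 1.25, is the highest.

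Of the 13 other ectonucleotidases tested, 0 passed the adjusted threshold by limma and 4 had an unadjusted p under 0.05, beside 21.2% of all genes. At the threshold of the study 1 was higher and 1 lower, beside 4.70% and 4.10%. The smallest p belonged to Alpl, the tissue-nonspecific alkaline phosphatase, which can also release adenosine from AMP. It had 1.652, 1.82, 1.26 and 1.32 FPKM in control uteri and 4.00, 2.35, 7.46 and 4.54 in Nr2f2 d/d. Its groups did not overlap, and the log2 difference was 1.25 (SE 0.281, adjusted p = 0.0571). Of the 5 ATP release channels tested, 0 passed at either threshold and 0 had an unadjusted p under 0.05. Lrrc8a, a volume-regulated anion channel subunit, had the smallest p there (log2 difference -0.21, adjusted p = 0.285), with 68.3% of its exon bases shared with other genes.

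Inside the cell, 22 enzymes of adenosine and AMP were tested and 1 passed the adjusted threshold, as higher, beside 2.62% of all genes. Ampd3, an AMP deaminase, had 6.46, 7.27, 6.27 and 6.88 FPKM in control uteri and 11.0, 9.63, 12.99 and 9.001 in Nr2f2 d/d (log2 difference 0.62, adjusted p = 0.0378 by limma, under 0.05 in 3 of 8 fits with a library left out). Of 8 enzymes of inosine and purine bases, 0 passed the adjusted threshold by limma and 2 had an unadjusted p under 0.05, again beside 21.2% of all genes. The threshold of the study was passed by 1 as higher and 1 as lower (4.70% and 4.10% of all genes). Gda, guanine deaminase, had the smallest p and went from 8.99 ± 1.80 to 5.53 ± 1.00 FPKM (adjusted p = 0.0706). Among the 10 P2 nucleotide receptors, 0 passed the adjusted threshold by limma, and 2 had an unadjusted p under 0.05 (21.2% of all genes). Both were higher at the threshold of the study (4.70% of all genes). P2ry1, an ADP receptor, had 2.18, 3.23, 2.66 and 2.10 FPKM in control uteri and 6.74, 5.01, 9.74 and 2.74 in Nr2f2 d/d. Replicate 4 of Nr2f2 d/d was again inside the control range, and the adjusted p was 0.136 with it and 0.0394 without it.

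On the cAMP side, 15 G proteins and adenylyl cyclases were tested, with 1 higher and 2 lower at the threshold of the study, beside 4.70% and 4.10% of all genes. At the adjusted threshold, which 2.62% of all genes passed, 1 was called: Gnai1, an inhibitory G protein subunit, fell from 24.3 ± 1.99 to 16.8 ± 2.04 FPKM (log2 difference -0.52, adjusted p = 0.0399 by limma). Of 25 cAMP effectors and phosphodiesterases, 3 passed the adjusted threshold as lower and 0 as higher (1.53% and 1.09% of all genes), and at the threshold of the study 5 were lower and 1 was higher (4.10% and 4.70%). Rapgef4, a cAMP-activated exchange factor, fell from 1.5 ± 0.206 to 0.739 ± 0.214 FPKM (adjusted p = 0.0492), and Pde8a, a cAMP phosphodiesterase, from 5.75 ± 0.523 to 3.54 ± 0.222 (adjusted p = 0.0154). Pde2a, a phosphodiesterase stimulated by cGMP, had 16.3, 16.2, 12.6 and 15.7 FPKM in control uteri and 8.89, 7.57, 9.49 and 7.80 in Nr2f2 d/d (log2 difference -0.81, adjusted p = 0.0151), but 64.3% of its exon bases are shared with Gm45837 on the same strand. With a library left out, the adjusted p stayed under 0.05 in 5 of 8 fits for Pde8a, 4 of 8 for Pde2a, and 1 of 8 each for Gnai1 and Rapgef4.

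Endothelial cells are known to express Adora2a, Adora2b, Entpd1, Slc29a1 and Pde2a, and their markers were also lower in Nr2f2 d/d. Of 8 endothelial markers tested, 7 had a log2 difference below 0 and 4 passed the adjusted threshold as lower, beside 1.53% of all genes. Pecam1 fell from 58.8 to 31.0 FPKM (log2 difference -0.90, adjusted p = 0.0192 by limma) and Cdh5, VE-cadherin, from 55.3 to 27.8 (-0.99, adjusted p = 0.0149). Kdr (-0.64) and Emcn (-0.70) also passed as lower. By limma, Tie1 (-0.67, adjusted p = 0.0525), Tek (-0.74, 0.0654), Vwf (-0.91, 0.209) and Cldn5 (0.10, 0.897) did not pass. Among control uteri, Cldn5 was highest in replicate 2, at 38.9 FPKM against 11.2 to 20.8 in the others. The summed level of the 8 was 207 to 297 FPKM in control uteri and 134 to 164 in Nr2f2 d/d, and no marker was at 0. For 6 pericyte markers the sums were 204 to 256 and 140 to 172 FPKM, and all 6 had a log2 difference below 0. By limma, 4 of them had an unadjusted p under 0.05, beside 21.2% of all genes. Rgs5 alone passed the adjusted threshold, as lower, beside 1.53%. Smooth muscle markers, with 0 of 8 under an adjusted or unadjusted p of 0.05 by limma, summed to 1320 to 1860 FPKM in control uteri and 1060 to 2590 in Nr2f2 d/d, the highest sum being in replicate 4. The part of vessel or muscle content in the values of the adenosine genes was not tested.

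**Figure D4:**
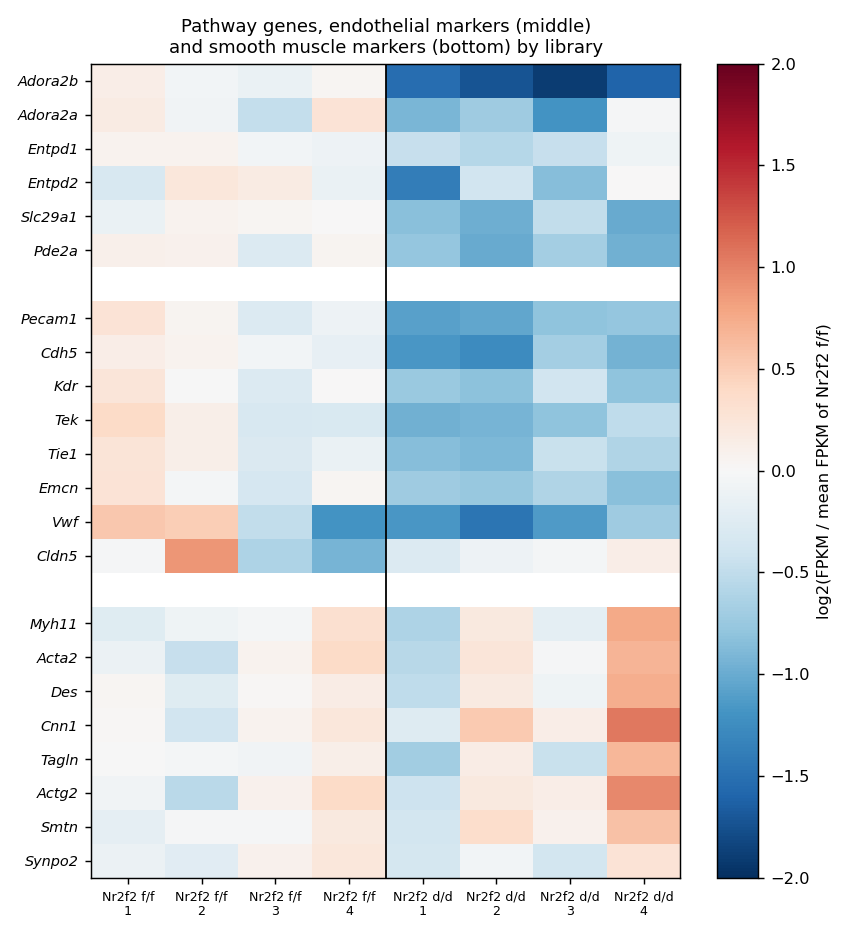
Each cell gives log2 of the FPKM over the mean of Nr2f2 f/f for 1 gene (rows) in 1 uterus (columns), with 6 pathway genes on top, 8 endothelial markers in the middle and 8 smooth muscle markers below. Blue is lower and red higher than the control mean. Adora2b is blue in all 4 Nr2f2 d/d uteri, as are Pecam1, Cdh5, Kdr and Emcn, while the muscle markers are highest in replicate 4 of Nr2f2 d/d.

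Immune, stromal and epithelial cells are further known sources of Ada and of the surface enzymes. The sums of T and NK cell markers were 16 to 27.6 FPKM in control uteri and 30.7 to 177 in Nr2f2 d/d. All 5 that were tested had a log2 difference above 0. Only Cd3d passed the adjusted threshold, as higher (0.374 to 0.964 FPKM, adjusted p = 0.0231 by limma), beside 1.09% of all genes. At the threshold of the study 3 were higher, beside 4.70%. Gzma, a granzyme, went from 9.83 to 66.8 FPKM (adjusted p = 0.0517 by limma). When it was left out after its values were seen, the sums overlapped, at 9.50 to 17.7 and 8.33 to 27.7. These were mostly Ncr1 and Klrb1c (7.86 and 3.69 FPKM in control uteri), whose groups overlapped. Cd3e (0.281 to 0.728 FPKM) and Cd3d had groups apart, beside 15.4% of all genes. Cd4 and Cd8a, too low to be tested, were above every control in 3 of 4 Nr2f2 d/d uteri. B cell marker sums were 1.04 to 1.28 and 1.89 to 3.40 FPKM. Cd79b, the 1 gene of 4 that could be tested, passed the adjusted threshold as higher (log2 difference 0.99, adjusted p = 0.0398 by limma), beside 1.09% of all genes. Neutrophil marker sums overlapped, at 3.62 to 21.1 and 18.3 to 41.1 FPKM. Of 4 tested, 0 passed the adjusted threshold by limma and 3 had an unadjusted p under 0.05 (21.2% of all genes), S100a8 (log2 difference 2.16) and S100a9 (2.25) above 0 with groups apart and Retnlg (-1.32) below. Macrophage marker sums overlapped too, at 104 to 204 and 142 to 216, with 0 of 7 under an adjusted or unadjusted p of 0.05 by limma. Stromal marker sums were 1510 to 1700 and 2070 to 3650 FPKM, but the list was split, 4 of 8 being higher and 4 lower. Of its 8 genes Dcn alone passed the adjusted threshold, as higher (1.09% of all genes), while at the threshold of the study 4 were higher and 2 lower (4.70% and 4.10% of all genes), the latter being Vim (log2 difference -0.66) and Thy1 (-0.56). Epithelial sums were 702 to 735 and 864 to 1000 FPKM, and 7 of 8 genes tested had a log2 difference above 0. Krt8 alone passed the adjusted threshold, as higher (1.09% of all genes). At the threshold of the study 2 were higher (4.70%), the other being Krt19 (65.6 to 164 FPKM, adjusted p = 0.0559 by limma). The part of these cells in the Ada and Nt5e values was not tested.

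The genes whose pattern over the 8 libraries lay closest to that of Adora2b, by the root mean square difference of log2(FPKM + 0.5) values less their own control mean, were Vsig2 (0.155), Rasip1 (0.165), Gfpt2 (0.172), Gpc6 (0.178) and Slco2b1 (0.179), out of 13212 genes compared. Rasip1, a regulator of blood vessel formation, went from 22.8 to 11.5 FPKM, and Gpc6, a glypican of the cell surface, from 9.35 to 4.32. Gfpt2, an enzyme of hexosamine synthesis, went from 2.74 to 0.986 FPKM. The likeness holds on that scale: in FPKM, Adora2b was at 31.2% of the control level and these 5 genes at 36% to 50.3%. As the pattern of Adora2b had been used for the choice, these genes are given as a description.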

How the data were processed

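RNA-seq values were analysed for 8 mouse uteri, 4 Nr2f2 f/f and 4 Nr2f2 d/d, grouped by their labels. The authors made 76-bp paired-end reads, trimmed with cutadapt 1.12, aligned with STAR 2.5.2b to mm10 and counted with featureCounts 1.5.0-p1 of Subread, and deposited 1 table of FPKM values. The submitters' processing notes also name Cufflinks 2.0.2. The annotation, strand setting and FPKM formula are not given in the sources used here. Here, genes whose mean over the 8 libraries reached 0.5 FPKM were tested on log2(FPKM + 0.5) by limma 3.58.1 in R 4.3.3 with a mean-variance trend, two-sided, with Benjamini-Hochberg adjustment over the whole table, and the method was tested on simulated data. FPKM are no counts, so that no count test was run.

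Totals of fragments were recovered from values of single-exon genes of 60 to 120 bases, which came out whole (within 0.1) for 90.7% to 93.2% of values. Fragments per gene use GENCODE exon lengths and are approximate, and they cover counting error only. Gene positions are those of GENCODE vM21. Ratios were compared by exact permutation over all 70 arrangements. Each library is labelled as a separate sample of its genotype, and p-values measure the spread between these samples.

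The 9 genes, the lists and the tests were chosen with earlier results of these data known. Named genes were the 9, in each of 8 other lists every gene past the adjusted threshold or otherwise that with the smallest p, the 5 nearest to Adora2b in pattern among genes whose mean reached 1 FPKM, Nr2f2, and markers of cell types. Alternatives were the value added before log2, the filter, the scaling, the fit, a replicate block by title number or, added later, by column number, and each library left out.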

Additional observations from a re-analysis of the deposited data

Results flagged for a closer look

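Groups of 4 libraries were checked for a sample whose gap to the nearest other, over the range of the group, exceeded the 95% critical value of Dixon, which chance gives in about 1 in 20 groups, and 11 of 110 groups did. The 110 groups include genes picked after their values were seen, so that this count cannot be set against the chance share. In Nr2f2 f/f replicate 2, Entpd5, an ectonucleotidase, was at 18.4 FPKM against 6.23 to 7.29 in the other 3 controls. In the same library Dpp4, which binds ADA at the surface of cells in some species, was at 20.4 against 5.92 to 6.57, and Slc17a9, the vesicular nucleotide transporter, at 4.92 against 1.21 to 1.43. These 3 genes were picked after their values were seen. The library was also apart for Adora3, at 0.068 FPKM against 0.020 to 0.027, a matter of few fragments, and for the log2 ratio of Nt5e to Ada, at 3.80 against 1.75 to 2.01. Over the 110 pathway genes tested, it was the sample apart in 10, against 0 to 5 in the other libraries.

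Replicate 1 of Nr2f2 d/d had 8.89 FPKM of Dpp4, with 5.61 to 6.11 in the others of its group. Gda was at 11.7 FPKM in replicate 1 of Nr2f2 f/f, with the others at 7.89 to 8.26. For Pde2a, replicate 3 of Nr2f2 f/f was low, at 12.6 FPKM against 15.7 to 16.3. Nr2f2 itself was lowest in replicate 3 of Nr2f2 d/d, at 6.90 FPKM against 9.42 to 9.74. Replicate 3 of Nr2f2 f/f had a summed level of uterine markers of 789 FPKM against 314 to 369, of which Ltf, lactoferrin, made up 407 FPKM against 11.9 to 13.9 in the other 3 controls, and of adipocyte markers of 1.31 against 0.009 to 0.092.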

How the results depend on the processing

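Over the whole table, 375 genes passed the adjusted threshold; with a library left out it was 42 to 348, with 62 without Nr2f2 f/f replicate 1, 208 without 3, 95 without 4, 57 without Nr2f2 d/d replicate 1 and 42 without 2. At the threshold of the study, 1082 to 1442 passed. Of the adenosine genes without Adora2b, 0 passed the adjusted threshold, and 0 to 1 with a library left out, the 1 being Entpd1 without Nr2f2 d/d replicate 4. At the threshold of the study 2 passed, Adora2a and Ada, and 1 to 3 with a library left out, 1 without Nr2f2 f/f replicate 2 or 4 or Nr2f2 d/d replicate 1, 2 or 3; with 1 added before log2 or with median-ratio scaling it was 1, Adora2a being lost. Of the other pathway genes, 0 to 6 passed the adjusted threshold, 0 without Nr2f2 f/f replicate 4 or Nr2f2 d/d replicate 1 or 2, 1 without Nr2f2 f/f replicate 1 and 3 without replicate 3, and 4 with no filter; 14 to 21 passed that of the study. The Adora2b difference of -1.02 was -1.48 with 0.1 added and -0.74 with 1 added, and -1.05 to -0.99 with a library left out.

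The log2 difference of the Ada to Adk ratio was 0.85 to 1.24 with a library left out, each with an exact permutation p of 0.0571, the smallest 3 against 4 can give, and that of Nt5e to Ada was -1.16 to -0.48. Nt5e changed sign without Nr2f2 f/f replicate 1 (-0.10) or 4 (-0.04) or Nr2f2 d/d replicate 3 (-0.01), within -0.10 to 0.19. Without Nr2f2 f/f replicate 2, Entpd5 turned to 0.15 (range -0.35 to 0.15), Dpp4 to 0.07 (-0.50 to 0.07) and Slc17a9 to 0.28 (-0.27 to 0.28). The cause was not tested. By their titles, libraries of both genotypes carry the numbers 1 to 4, but same-numbered libraries did not deviate together (correlations -0.20, -0.17, 0.05 and -0.04, and 0 of 4 controls matched best with their own number). With that replicate block, 1 gene of the whole table and 0 other pathway genes passed the adjusted threshold, and the Ada to Adk ratio of 1.10 had an exact p of 0.125, the smallest 4 pairs can give. The column names of the table carry other numbers, of which both genotypes share 3, and these pairs did not all deviate together either (-0.20, 0.15 and -0.04). A replicate block by those numbers over 6 libraries, added after seeing the data, left 0 genes of the whole table and 0 other pathway genes past the adjusted threshold, and 0 adenosine genes other than Adora2b past that of the study. There the Ada to Adk ratio was 0.77 (exact p = 0.25, the smallest 3 pairs can give), Entpd5 0.18, Dpp4 0.10 and Slc17a9 0.24. That fit leaves out both Nr2f2 f/f replicate 2 and Nr2f2 d/d replicate 3. Depth limits Adora3.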

Other observations

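P2ry14, the receptor for UDP-glucose, was picked after its values were seen. It had 3.02, 5.51, 4.69 and 4.68 FPKM in Nr2f2 f/f and 26.3, 11.5, 76.6 and 4.85 in Nr2f2 d/d. The 4 Nr2f2 d/d uteri thus ranged from the control level to far above it, and the log2 difference of 1.97 (SE 0.719) had an adjusted p of 0.178 by limma. The difference was 1.29 without replicate 3 of Nr2f2 d/d and 2.58 without replicate 4. Uox, urate oxidase, also picked after its values were seen, was at 0.018 to 0.661 FPKM in Nr2f2 f/f and 0.544 to 9.89 in Nr2f2 d/d, with an adjusted p of 0.133. Ngfr, a neurotrophin receptor listed with the Schwann cell markers, rose from 6.68 to 50.3 FPKM (log2 difference 2.95, adjusted p = 0.0151). Gfra3, a coreceptor for artemin on the same list, was at 0.133 and 1.06 FPKM with groups that did not overlap (log2 difference 1.16, adjusted p = 0.105). Sox10 did not exceed 0.056 FPKM in any library.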
